A study of Mus musculus with 6 samples.

Results

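The genes described here are those by which a cell makes, senses and moves cholesterol: 8 genes of the mevalonate arm, 11 of the squalene and sterol arm, 4 that carry or regulate SREBP2, and 6 of cholesterol transport and esters, 29 in all. They were chosen by function, with each gene represented by the brightest of the probe sets (groups of array probes for 1 transcript) that the annotation of the array names for that gene alone. Of the 29, 27 had such a probe set and all 27 passed the filter on dim genes, out of 18194 genes with a probe set and 12152 tested. Acat2, a cytosolic thiolase that joins acetyl-CoA units at the start of the pathway, and Soat1, which makes cholesteryl esters, had no probe set named here and have no value below.

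Cholesterol is built from acetyl-CoA through mevalonate and the isoprenoid diphosphates to squalene, which is closed into lanosterol and trimmed to cholesterol. When the endoplasmic reticulum is poor in sterol, the escort protein SCAP carries SREBP2 to the Golgi, where it is cut, and its released part turns on genes of synthesis and uptake. When sterol is plentiful, INSIG proteins hold SCAP and SREBP2 back. In the mammary gland, lipid synthesis of this kind is best known from the secretory epithelium of lactation, and the cells measured here came from virgin glands.

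The luminal mammary epithelial cells (MECs) of 3 MMTV-Cre;Runx1L/L;R26Y females (Runx1-null) were compared with those of 3 MMTV-Cre;Runx1+/+;R26Y females (Runx1-WT), all adult virgins on a mixed B6/129/FVB background, with 1 array per mouse. The question was what the loss of Runx1, which encodes a DNA-binding transcription factor, did to these cells. Both genotypes carried the MMTV-Cre transgene, which expresses Cre from the mouse mammary tumor virus promoter, and R26Y, a reporter that turns on yellow fluorescent protein (YFP) after Cre has acted. YFP+ cells were sorted, and YFP marks recombination of the reporter, not of Runx1, so a marked cell may have kept an intact Runx1L allele. The methods call the mice littermates without assigning them to litters.

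All values are array intensities on a linear scale as the authors normalized them, and differences are log2 values of Runx1-null minus Runx1-WT with their standard error (SE). The arrays correlated with each other at 0.947 to 0.985 on the log2 scale. The luminal marker list had all 6 genes above the filter, and its summed intensity was 57085 to 61320 in Runx1-WT mice and 57903 to 65892 in Runx1-null mice. This list does not divide luminal cells into progenitors and mature cells. By flow cytometry, the paper reports a smaller share of mature cells among YFP+ luminal cells of the Runx1-null genotype. The part of that shift in the differences below was not tested. The brightest of 6 Runx1 probe sets read 2015 to 4082 in Runx1-WT mice and 2277 to 4820 in Runx1-null mice, and 0 of the 6 separated the genotypes. Their position relative to the deleted part was not analysed here, and the deletion is thus unchecked by these probes. In RNA from sorted bulk cells, fewer cells of a type and less RNA per cell cannot be told apart.

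The stretch before the start of a cholesterol gene is where SREBP2 and its partners NF-Y and Sp1 are known to bind. RefSeq promoters (GRCm38.p6) were available for 24 of the 29 genes, 30 promoters in all because some genes have several starts, and the 250 bases before each start were searched on both strands. For Fdps, Fdft1, Sqle, Npc1 and Stard4 there was no entry. The NF-Y motif CCAAT was present in 22 of the 30 promoters, or 73.3%, against 33.8% of all 32851 promoters and 35.4% of the 21263 protein-coding ones. The Sp1 motif GGGCGG was also present in 22, or 73.3%, against 32.7% and 42.6%. The core of the sterol response element, CACNCCAC, was found in 3 promoters, those of Acat2, Hmgcs1 and Insig1, which is 10% against 5.3% of all promoters. The RUNX motif TGTGGT was found in 1, that of Lss, which is 3.3% against 14.0% of all promoters. No match overlapped another, and a match is a string of letters in this window, not a bound site. Other forms of the sterol response element were not searched for, so a promoter without a match to CACNCCAC may still hold one.

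The promoters of 6 genes are printed from RefSeq, 5′ to 3′ in the direction of the gene and ending at the base before the start, with matches to the 4 motifs on either strand in capitals. Hmgcs1 (chr13:119690101-119690350, plus strand) and Insig1 (chr5:28071162-28071411, plus strand) are shown because they hold the sterol response element core and were measured. Idi1 (chr13:8885356-8885605, plus strand), Cyp51 (chr5:4104698-4104947, minus strand) and Tm7sf2 (chr19:6067851-6068100, minus strand) are shown because they had the smallest p-values among the cholesterol genes, and Lss (chr10:76531355-76531604, plus strand) because it alone holds the RUNX motif.
Hmgcs1: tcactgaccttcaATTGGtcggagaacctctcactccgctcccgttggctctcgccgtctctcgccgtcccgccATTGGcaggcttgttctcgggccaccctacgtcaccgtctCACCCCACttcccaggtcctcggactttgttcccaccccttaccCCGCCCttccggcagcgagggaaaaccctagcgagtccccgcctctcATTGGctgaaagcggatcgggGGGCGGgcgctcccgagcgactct
Insig1: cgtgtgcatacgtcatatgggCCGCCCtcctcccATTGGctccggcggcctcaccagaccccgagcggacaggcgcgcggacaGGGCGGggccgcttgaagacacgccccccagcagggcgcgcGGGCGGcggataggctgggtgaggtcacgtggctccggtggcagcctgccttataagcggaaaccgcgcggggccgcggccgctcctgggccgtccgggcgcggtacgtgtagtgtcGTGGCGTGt
Idi1: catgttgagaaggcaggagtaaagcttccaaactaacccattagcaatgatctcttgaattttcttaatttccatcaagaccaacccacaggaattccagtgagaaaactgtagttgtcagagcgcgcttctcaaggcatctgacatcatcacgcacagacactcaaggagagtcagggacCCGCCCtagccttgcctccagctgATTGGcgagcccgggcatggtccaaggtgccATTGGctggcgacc
Cyp51: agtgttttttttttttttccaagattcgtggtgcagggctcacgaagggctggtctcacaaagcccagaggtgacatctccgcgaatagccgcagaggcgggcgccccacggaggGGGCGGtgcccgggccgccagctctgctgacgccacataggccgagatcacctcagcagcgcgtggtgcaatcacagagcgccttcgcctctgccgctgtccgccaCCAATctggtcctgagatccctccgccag
Tm7sf2: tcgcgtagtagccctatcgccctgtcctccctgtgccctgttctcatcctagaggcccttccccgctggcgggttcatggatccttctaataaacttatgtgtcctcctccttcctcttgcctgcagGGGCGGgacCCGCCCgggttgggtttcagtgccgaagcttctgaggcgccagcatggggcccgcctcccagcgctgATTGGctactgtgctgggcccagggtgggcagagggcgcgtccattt
Lss: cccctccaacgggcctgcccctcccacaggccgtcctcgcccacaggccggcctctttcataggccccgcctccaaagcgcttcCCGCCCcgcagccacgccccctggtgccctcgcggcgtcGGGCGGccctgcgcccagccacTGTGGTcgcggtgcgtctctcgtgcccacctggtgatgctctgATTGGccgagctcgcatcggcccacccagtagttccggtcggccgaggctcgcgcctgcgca
In Hmgcs1 the core CACCCCAC lies 136 to 129 bases before the start, between matches to NF-Y, read as ATTGG on this strand, at 237 to 233, 176 to 172 and 45 to 41 bases. In Insig1 the core is on the opposite strand, as GTGGCGTG, 9 to 2 bases before the start. Idi1 has a pair of ATTGG matches, at 45 to 41 and 14 to 10 bases, while Cyp51 has CCAAT at 29 to 25 and Tm7sf2 has ATTGG at 47 to 43 bases. Cyp51 and Tm7sf2 carry matches to NF-Y and Sp1 and no match to the searched sterol response element core or to the RUNX motif. The TGTGGT of Lss lies 105 to 100 bases before the start.

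**Figure D1:**
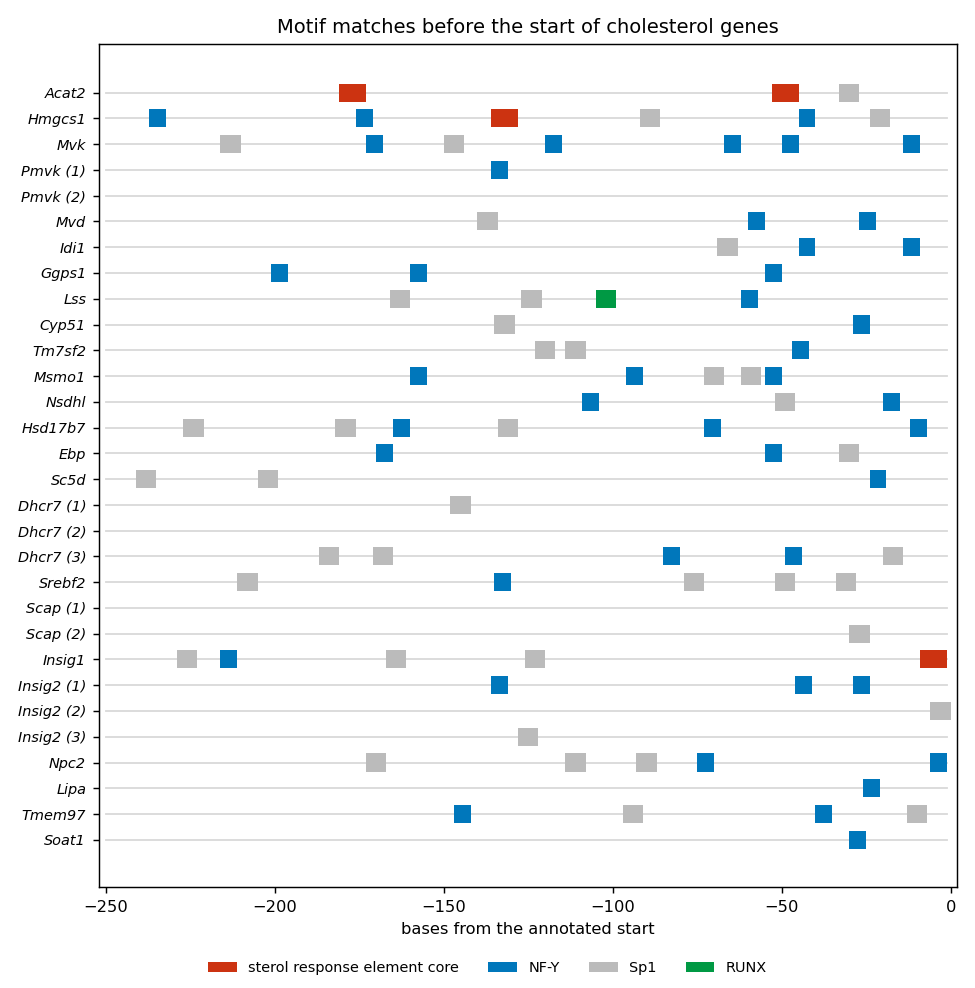
Positions of motif matches in the 250 bases before the annotated start of 30 promoters of 24 cholesterol genes (horizontal axis, bases from the start; 1 line per promoter, numbered where a gene has several). Red boxes are the sterol response element core, blue NF-Y, grey Sp1 and green RUNX; blue and grey boxes each appear in 22 promoters, red in 3 and green in 1.

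Across the whole group, no cholesterol gene was called different between the genotypes. Of the 27 genes, 0 had an adjusted p under 0.05, and the background was the same, at 0% of the 12152 genes tested (limma, Benjamini-Hochberg adjustment over all of them). At an unadjusted p under 0.05 there were 2, Idi1 with the higher and Tm7sf2 with the lower level in Runx1-null mice, against a background of 1.93%, or 234 genes. All 3 Runx1-null mice lay above all 3 Runx1-WT mice for 2 genes, Hmgcs1 and Cyp51, where the background was 2.08% of genes. They lay below for 3 genes, Tm7sf2, Scap and Npc2, where the background was 3.47%. The log2 difference was above 0 for 19 of the 27, or 70.4%, against 44.6% of all genes tested, and the median difference was 0.09 against -0.02. With quantile normalization the genotypes did not overlap for 3 of the 27 genes, and with median scaling for 2, and the share of all genes was not counted there.

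**Figure D2:**
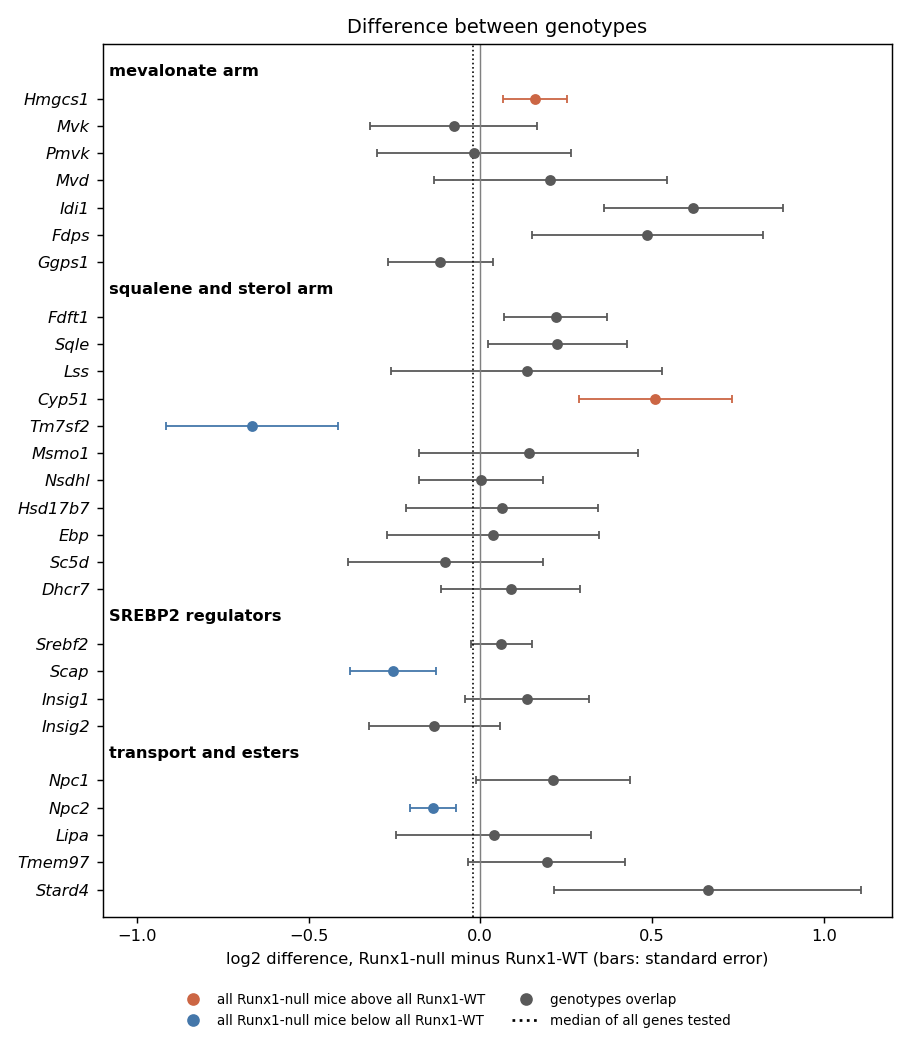
Log2 difference of intensity, Runx1-null minus Runx1-WT (horizontal axis; points, with SE as bars; n = 3 mice per genotype), for the 27 cholesterol genes by role. Orange marks Hmgcs1 and Cyp51, with all Runx1-null mice above all Runx1-WT mice, blue marks Tm7sf2, Scap and Npc2, with all below, and the dotted line is the median of all genes tested, -0.02.

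In the mevalonate arm, 4 of 7 genes had a difference above 0, with a median of 0.16, and the larger differences were those of Idi1 and Fdps. The median of the arm went to -0.00060 when Runx1-WT mouse 2 was left out and to 0.019 when Runx1-null mouse 2 was, and it was 0.069 with the probe set of median difference in place of the brightest. Hmgcs1, which makes HMG-CoA, had intensities of 5273, 5259 and 5059 in Runx1-WT mice 1, 2 and 3 and of 5436, 6556 and 5476 in Runx1-null mice 1, 2 and 3. The genotypes did not overlap, but Runx1-null mice 1 and 3 stood just above the Runx1-WT mice and only mouse 2 stood well clear. The means were 5197 ± 119.6 and 5822 ± 635 (SD, n = 3 each), a log2 difference of 0.16 (SE 0.09). Its exact two-sided permutation test gave p = 0.1, and 3 mice against 3 allow no smaller value. Of the other probe sets of Hmgcs1, 3 differed by 0.10, 0.12 and 0.12 with overlapping genotypes and the dimmest by -0.22. In all 5 of its probe sets, Runx1-null mouse 2 was the highest.

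Idi1, the isomerase that turns isopentenyl diphosphate into its reactive partner, read 1060.4, 1179 and 1421 in Runx1-WT mice and 2066, 2405 and 1299.5 in Runx1-null mice. Runx1-null mice 1 and 2 were well above every Runx1-WT mouse, while mouse 3 fell between Runx1-WT mice 2 and 3. The means were 1220.2 ± 184 and 1923 ± 566 (SD, n = 3 each), and the log2 difference was 0.62 (SE 0.26; exact permutation test, p = 0.2). Its dimmer probe set gave 0.66.

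Fdps, which makes farnesyl diphosphate, read 719.6, 814 and 1669 in Runx1-WT mice and 1486, 1551 and 1166 in Runx1-null mice, and Runx1-WT mouse 3 was the highest of the 6. Its log2 difference was 0.49 (SE 0.34). Mvd, the mevalonate diphosphate decarboxylase, ranged from 232 to 478 in Runx1-WT mice and from 286 to 458 in Runx1-null mice, with a difference of 0.20 (SE 0.34). Both were thus high in the same 3 mice, Runx1-WT mouse 3 and Runx1-null mice 1 and 2, although for Mvd Runx1-null mouse 1 was further from the other 2. The kinases Mvk and Pmvk, which add the phosphates to mevalonate, differed by -0.08 (SE 0.24) and -0.02 (SE 0.28), over ranges of 171 to 231 and 604 to 1039.9 across all mice, and both turned above 0 with median scaling, at 0.014 and 0.073. Ggps1, which leads isoprenoids away from cholesterol toward protein prenylation, ranged from 2059.8 to 2820.3 and differed by -0.12 (SE 0.15).

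In the squalene and sterol arm, 9 of 11 genes had a difference above 0, with a median of 0.09, and the largest difference in each direction was that of Cyp51 and of Tm7sf2. The arm's median was 0.017 without Runx1-null mouse 2, 0.28 without Runx1-null mouse 1, 0.18 without Runx1-null mouse 3, 0.14 without Runx1-WT mouse 1 and 0.18 with median scaling. Cyp51, the lanosterol demethylase, read 1004, 1229 and 1159.9 in Runx1-WT mice and 1526, 2116 and 1276 in Runx1-null mice. Every Runx1-null mouse was above every Runx1-WT mouse, mouse 3 only by a small margin over Runx1-WT mouse 2. The means were 1131 ± 115 and 1639.6 ± 431 (SD, n = 3 each), a log2 difference of 0.51 (SE 0.22; exact permutation test, p = 0.1). Its other probe sets differed by 0.39 and 0.10, and in both of them the genotypes overlapped.

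Tm7sf2, a sterol reductase that acts on the product of Cyp51, went the other way. Its intensities were 669.5, 882 and 544 in Runx1-WT mice and 371, 417 and 522 in Runx1-null mice. The genotypes did not overlap, and Runx1-WT mouse 3 and Runx1-null mouse 3 stood next to each other at the border. The means were 699 ± 171 and 437 ± 77.4 (SD, n = 3 each), a log2 difference of -0.66 (SE 0.25; exact permutation test, p = 0.1), from its single probe set. This was the lowest difference among the 27 genes.

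Sqle, the epoxidase that turns squalene into squalene epoxide, read 1837, 2157 and 1477 in Runx1-WT mice and 1786, 2532 and 2065 in Runx1-null mice. The genotypes overlapped, with the highest value in Runx1-null mouse 2 and the lowest in Runx1-WT mouse 3. The means were 1824 ± 340.1 and 2127 ± 377 (SD, n = 3 each), and the difference was 0.22 (SE 0.20; exact permutation test, p = 0.5). Fdft1, the squalene synthase one step earlier, ranged from 2386 to 3409 and differed by 0.22 (SE 0.15). Lss, which closes squalene epoxide into lanosterol, ranged from 324 to 381 in Runx1-WT mice and from 203 to 534 in Runx1-null mice. Its difference was 0.13 (SE 0.39), with 0.48 and 0.43 for its 2 dimmer probe sets.

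The other enzymes between lanosterol and cholesterol overlapped between genotypes. Msmo1, which oxidizes the methyl groups at carbon C4, ranged from 1487 to 3253 and differed by 0.14 (SE 0.32). Nsdhl and Hsd17b7, which complete the removal of those groups, differed by 0.00 (SE 0.18) and 0.06 (SE 0.28), over 774 to 949 and 862 to 1636. Ebp, a sterol isomerase, had its lowest and its highest value within the Runx1-null mice, at 1937 in mouse 1 and 4526 in mouse 3, and differed by 0.04 (SE 0.31). Sc5d, a desaturase, ranged from 1495 to 2683 and differed by -0.10 (SE 0.28). Dhcr7, the reductase of the last step on one route, ranged from 2207 to 3282 and differed by 0.09 (SE 0.20). Each of these differences was smaller than its standard error.

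Among the 4 regulators, 2 differences were above 0 and 2 below, with a median of -0.04 that had no stable sign. It was 0.052 without Runx1-WT mouse 2 and 0.055 with median scaling, and -0.14 and -0.11 without Runx1-WT mouse 3 and Runx1-null mouse 2. Srebf2, the gene for SREBP2 itself, read 3859.7, 4111 and 3984 in Runx1-WT mice and 4139.9, 4418 and 3929 in Runx1-null mice. The 6 values lay close together and overlapped, and the means of 3985 ± 126 and 4162 ± 245 (SD, n = 3 each) gave a log2 difference of 0.06 (SE 0.09; exact permutation test, p = 0.4). An array reads the transcript, so the cut form of the protein that acts on genes was not measured.

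Scap, the escort of SREBP2, read 3472, 3398 and 2838 in Runx1-WT mice and 2747, 2837 and 2534 in Runx1-null mice. The genotypes did not overlap, but Runx1-WT mouse 3 and Runx1-null mouse 2 differed by only about 1 unit of intensity. The means were 3236 ± 346 and 2706 ± 156 (SD, n = 3 each), a log2 difference of -0.25 (SE 0.12; exact permutation test, p = 0.1). A much dimmer probe set of Scap gave -0.22 with overlapping genotypes.

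Insig1, which holds SCAP in the endoplasmic reticulum and is itself turned on by SREBP2, read 4195, 4702 and 3703 in Runx1-WT mice and 3949, 5988 and 4095 in Runx1-null mice. Runx1-null mouse 2 was the highest, and Runx1-null mice 1 and 3 fell within the Runx1-WT values. The means were 4200.1 ± 499 and 4678 ± 1137 (SD, n = 3 each), a difference of 0.14 (SE 0.18; exact permutation test, p = 0.7). Insig2, its relative, read 2834, 3343 and 2082 in Runx1-WT mice and 2264, 2537 and 2602 in Runx1-null mice. All 3 Runx1-null mice lay within the spread of the Runx1-WT mice, at means of 2753 ± 634 and 2468 ± 179 (SD, n = 3 each) and a difference of -0.13 (SE 0.19; exact permutation test, p = 0.5).

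**Figure D3:**
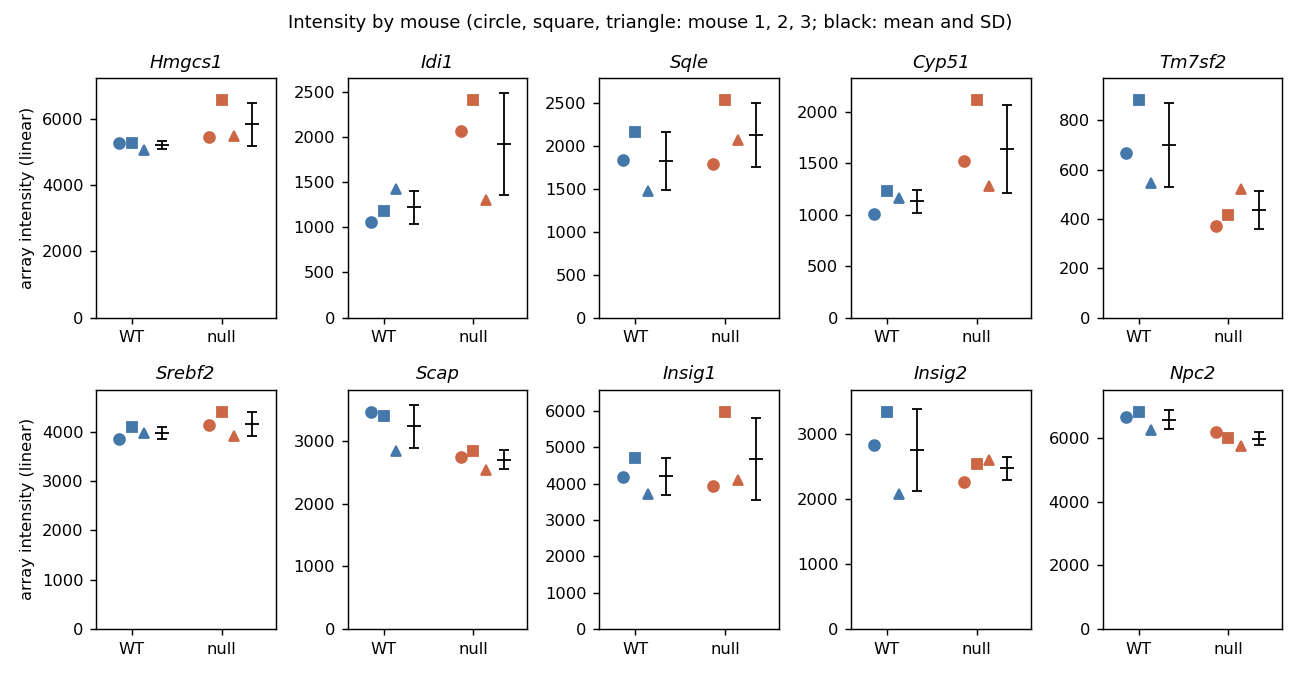
Linear array intensity (vertical axis from 0) of 10 cholesterol genes in each Runx1-WT (blue) and Runx1-null (orange) mouse, with circle, square and triangle for mice 1, 2 and 3 and the mean and SD in black. Of the 10, the genotypes are apart in Hmgcs1, Cyp51, Tm7sf2, Scap and Npc2, and the square of Runx1-null mouse 2 is the top point in Hmgcs1, Idi1, Sqle, Cyp51, Srebf2 and Insig1.

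Among the 5 genes of transport and esters with a value, 4 had a difference above 0, with a median of 0.19 that came to 0.019 when Runx1-WT mouse 3 was left out and to 0.038 when Runx1-null mouse 2 was. Npc2, which binds cholesterol in the lumen of lysosomes and passes it to NPC1, was the exception. Its intensities were 6666, 6830.1 and 6241 in Runx1-WT mice and 6175, 5993 and 5754 in Runx1-null mice. Every Runx1-null mouse was below every Runx1-WT mouse, by a small margin between Runx1-WT mouse 3 and Runx1-null mouse 1. The means were 6579 ± 304 and 5974 ± 211 (SD, n = 3 each), a log2 difference of -0.14 (SE 0.07; exact permutation test, p = 0.1), and 2 dimmer probe sets gave -0.26, also without overlap, and -0.56, with overlap.

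Npc1, the membrane partner of NPC2, ranged from 697 to 1155 and differed by 0.21 (SE 0.22). Lipa, the lysosomal acid lipase that frees cholesterol from its esters, ranged from 521 to 951 and differed by 0.04 (SE 0.28). Tmem97, a membrane protein that binds NPC1, ranged from 381 to 611 and differed by 0.19 (SE 0.23). Stard4, which shuttles cholesterol between membranes, read 369, 249 and 582 in Runx1-WT mice and 785, 804 and 335 in Runx1-null mice. Runx1-null mice 1 and 2 were the highest and Runx1-null mouse 3 was among the low mice, so the difference of 0.66, the highest among the 27 genes, had an SE of 0.45.

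Of the 27 genes, 17 had 2 or more probe sets above the filter. For 12 of them all such probe sets had the same sign, and for Ggps1, Hmgcs1, Hsd17b7, Lipa and Mvk the signs differed. The probe sets used for Fdft1 and Hsd17b7 end in _x_at and those for Mvd and Lipa in _s_at, names the array's maker gives to probes that can also match other transcripts, and these 4 values are less certain for that reason.

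A second pattern ran by mouse more than by genotype. Runx1-null mouse 2 had the highest value of the 6 mice in 14 of the 27 genes, or 51.9%, against 11.7% of all genes tested, and the lowest in 0, against 6.39%. Of the 18 synthesis enzymes it was highest in 10, or 55.6%. The mean log2 value over the 27 genes was 10.41, 10.37 and 10.40 in the Runx1-WT mice and 10.37, 10.69 and 10.42 in Runx1-null mice 1, 2 and 3, so that only mouse 2 stood above the others. Relative to the mean of the other 5 mice, its median difference was 0.34 over the 27 genes, with 20, or 74.1%, above 0, against 0.05 and 59.6% over all genes tested. Because the mouse was picked for its high values in these same genes, this median and this share are not separate support for the pattern. Cyp51, Idi1 and Stard4 stood highest in this mouse, at 0.79, 0.82 and 0.92 above the mean of the other mice. The 7 genes below 0 in it were Tm7sf2, at -0.46, Ebp, at -0.27, Mvk, at -0.23, Npc2, at -0.08, Nsdhl and Scap, both at -0.07, and Insig2, at -0.03.

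The median genotype difference of the 27 genes, 0.09 over all mice, depended on which mouse was left out. It was 0.018 without Runx1-null mouse 2, 0.21 without Runx1-null mouse 1, 0.16 without Runx1-null mouse 3, and 0.14, 0.080 and 0.081 without Runx1-WT mice 1, 2 and 3. The number of genes above 0, 19 over all mice, was 15 without Runx1-null mouse 2, also 15 without Runx1-WT mouse 2, and 18 to 21 without any of the other 4. Without Runx1-null mouse 2, the difference of Cyp51 was 0.31, that of Idi1 0.44, that of Hmgcs1 0.07 and that of Insig1 -0.06, whereas Tm7sf2 stayed at -0.64, Scap at -0.29 and Npc2 at -0.14. Since this mouse was singled out for its high values in these genes, lower differences without it follow from the choice.

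**Figure D4:**
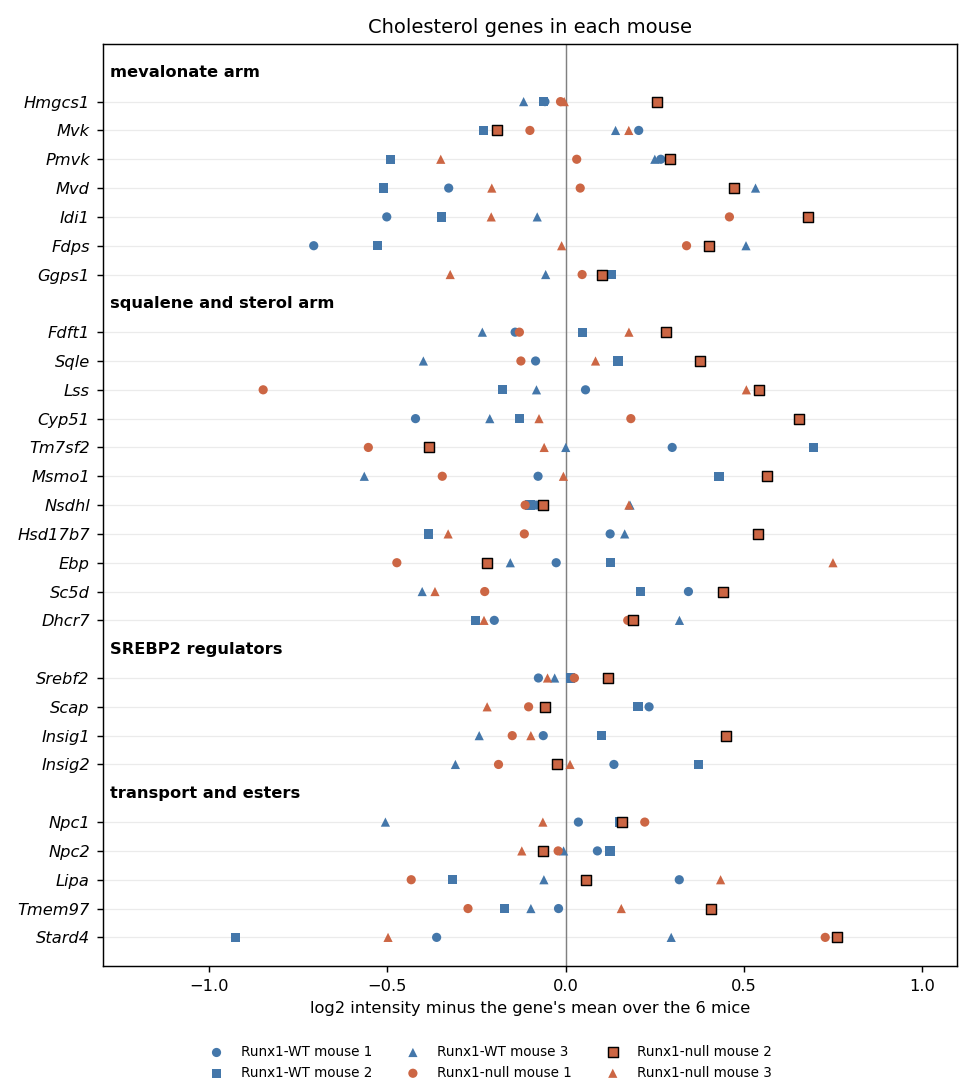
Log2 intensity of each cholesterol gene in each mouse minus the gene's mean over the 6 mice (horizontal axis), for 27 genes by role. Blue symbols are Runx1-WT and orange Runx1-null mice, with circle, square and triangle for mice 1, 2 and 3, and the outlined square, Runx1-null mouse 2, is the rightmost symbol in 14 of the 27 genes.

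**Figure D5:**
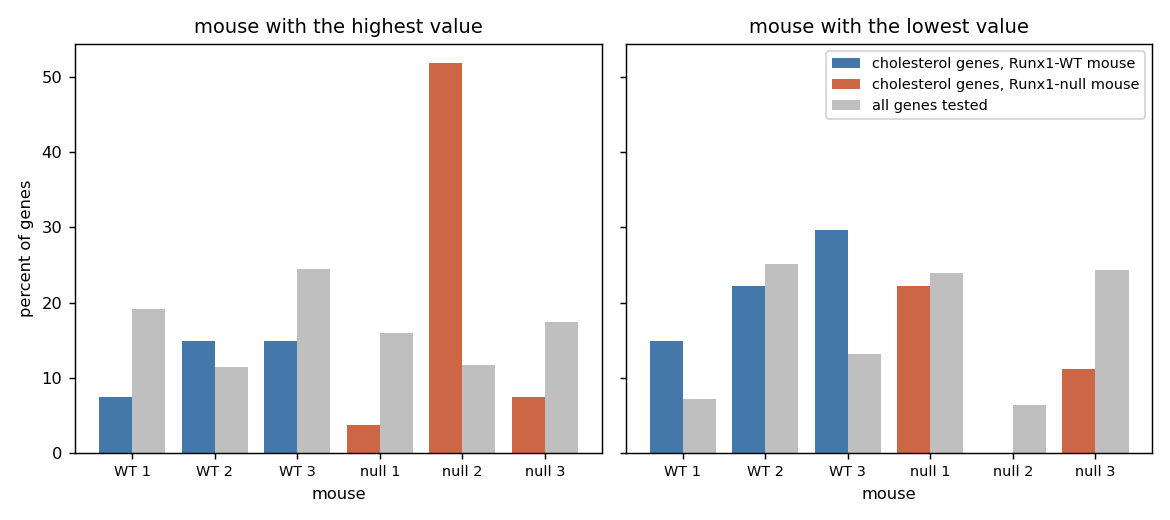
Percent of genes (vertical axis) for which each mouse (horizontal axis) had the highest value of the 6 (left) or the lowest (right), for the 27 cholesterol genes (blue and orange bars) and for all 12152 genes tested (grey bars). The bar of Runx1-null mouse 2 reaches 51.9% on the left, against 11.7% of all genes, and 0 on the right.

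Other readouts that differed among the same mice are given here as measured. The basal and myoepithelial list, with 5 of 6 genes above the filter and Myh11, a smooth muscle myosin, below it, had summed intensities of 4855, 3740 and 7263 in Runx1-WT mice and 9805, 10327 and 3534 in Runx1-null mice. In this sum Runx1-null mice 1 and 2 were the highest, then Runx1-WT mouse 3, and the order of the mice was that of Stard4 except for the 2 lowest. Stard4 was chosen for this after its values were seen, and how many other genes share such an order was not counted. The genes of the list did not move together. From Runx1-WT to Runx1-null mice, the mean of Oxtr went from 900 to 2362 and that of Trp63 from 994 to 1935. Krt14 went from 1690 to 1975 and Krt5 from 206 to 317.5, whereas Acta2 went from 1426 to 1245 and Myh11 from 69.3 to 55.1. The mevalonate arm, at mean log2 values of 9.89, 9.74 and 10.20 in Runx1-WT mice and 10.15, 10.32 and 9.90 in Runx1-null mice, had its 3 highest values in Runx1-null mice 1 and 2 and Runx1-WT mouse 3. That mean includes Idi1 and Fdps, so it is not a separate readout for them. The mean log2 value of 13 DNA replication genes was 9.75, 9.32 and 10.68 in Runx1-WT mice and 11.03, 9.86 and 9.37 in Runx1-null mice, highest in Runx1-null mouse 1 and Runx1-WT mouse 3 and not in Runx1-null mouse 2. The part of the basal list and of the DNA replication genes in the differences of Idi1, Fdps and Stard4 was not tested.

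Beside the 5 genes whose genotypes did not overlap, 1 of the marker lists and 1 of the RNA controls also separated the genotypes. The endothelial list, with 4 of 5 genes above the filter and Cdh5 below it, summed to 980, 636 and 876 in Runx1-WT mice and 397, 538 and 601 in Runx1-null mice. The log2 ratio of the 3′ to the 5′ control probe set of Gapdh, a sign of RNA integrity and amplification, was 0.464, 0.466 and 0.459 in Runx1-WT mice and 0.551, 0.473 and 0.609 in Runx1-null mice (exact permutation test, p = 0.1), though that of beta-actin overlapped, at 0.50 to 0.52 and 0.44 to 0.74 (exact permutation test, p = 0.8). The sorts in the methods gated out lineage-positive cells, endothelial cells and leukocytes among them. The leukocyte sum was 859 to 3525 and 731 to 1316, with 4 of 5 genes above the filter and Ptprc below. The adipocyte sum was 3050 to 3476 and 2042 to 3372, with 2 of 4 above and Adipoq and Lep below, and the fibroblast sum was 11608 to 13641 and 4581 to 12127, with 6 of 6 above. Their part in the differences of Tm7sf2, Scap, Npc2, Hmgcs1 and Cyp51 was not tested.

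The animal numbers in the labels fall into a lower range, with Runx1-WT mice 1 and 2 and Runx1-null mice 1 and 2, and an upper range, with mouse 3 of each genotype. Within the lower range, both Runx1-null mice lay above both Runx1-WT mice for 9 of the 27 genes, against 26.1% of all genes tested, and below for 5, against 24.5%, so these counts were near the background. Idi1 was 0.995 higher (SE 0.16), Fdps 0.99 (SE 0.17), Stard4 1.39 (SE 0.25) and Cyp51 0.69 (SE 0.22) in Runx1-null mice of this range, and Tm7sf2 was 0.97 lower, at -0.97 (SE 0.22). At an unadjusted p under 0.05 there were 9 of the 27 genes and 1866 of all genes, and at an adjusted p under 0.05 there were 0 (limma).

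In the upper range, with 1 mouse of each genotype and no test, the sign was the opposite of that in the lower range for 16 of the 27 genes. The share of all genes tested with opposite signs was not counted, so the 16 cannot be set against a background. Idi1 differed there by -0.13, Fdps by -0.52, Stard4 by -0.79 and Mvd by -0.74, the last against 0.68 in the lower range. Cyp51 kept its sign, at 0.14, as did Hmgcs1, at 0.11 after 0.18. Tm7sf2 differed by -0.06, Scap by -0.16 after -0.30, and Npc2 by -0.12 after -0.15. The medians over the 27 genes were 0.10 in the lower and 0.04 in the upper range, against 0.014 and -0.092 over all genes tested. By role, the lower range gave medians of 0.27 for the mevalonate arm, 0.0033 for the squalene and sterol arm, -0.098 for the regulators and 0.097 for transport and esters.

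Among genes that border on cholesterol synthesis, none passed the test either. Of 38 genes in 4 lists, 34 were tested, 0 passed in either direction at an adjusted p under 0.05 or at an unadjusted p under 0.05 (limma), and 17 differences were above 0 and 17 below. Among the 8 tested genes for cutting SREBP and for sterol-dependent protein degradation, the median was 0.02. Mbtps1, the protease that makes the first cut in SREBP2, differed by 0.13 (SE 0.15) and Rnf139, a ubiquitin ligase of the endoplasmic reticulum, by -0.13 (SE 0.09). The 5 genes of acetyl-CoA supply had a median of -0.01. Acly, which makes cytosolic acetyl-CoA from citrate, differed by 0.01 (SE 0.06), and Acss2, which makes it from acetate, by -0.50 (SE 0.25), with means of 802 ± 175 in Runx1-WT mice and 563 ± 108 in Runx1-null mice (SD, n = 3 each) and overlapping values.

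The 10 tested genes of the isoprenoid branch and protein prenylation had a median of 0.02. Fntb, a subunit of farnesyltransferase, differed by 0.26 (SE 0.18) and Pggt1b, a subunit of the enzyme that adds geranylgeranyl groups, by -0.11 (SE 0.17). The 11 tested genes of other sterol transport and ester handling had a median of -0.12. Vldlr, a lipoprotein receptor, differed by 0.36 (SE 0.54), and Nceh1, a cholesteryl ester hydrolase, by -0.24 (SE 0.24). Relative to the mean of the other mice, Runx1-null mouse 2 had a median difference of 0.01 over the 34 genes and was above 0 for 18, or 52.9%, below the 59.6% of all genes tested.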

How the data were processed

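RNA from sorted YFP+ luminal MECs was prepared (RNeasy), amplified (Ovation V2) and hybridized to Affymetrix whole-genome mouse arrays, 1 per mouse. The deposited table holds linear intensity values for 45101 probe sets, which the authors normalized with dChip (version and model not given in the sources used here). Precision is limited by the number of arrays. A reference table named 34958 probe sets for 1 gene and 932 for several, and 9211 were unnamed here. The last 2 kinds were left out.

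A floor was set at the 20th percentile over all arrays (19.335) before log2 was taken. Genes were represented by their brightest probe set and tested where its mean reached the 40th percentile (73.5), with limma 3.58.1 in R 4.3.3 (lmFit, eBayes with trend, Benjamini-Hochberg adjustment, threshold 0.05). For single genes, an exact two-sided permutation test over 3 mice against 3 was added. The script was tested on simulated data. The cholesterol genes and lists were chosen with earlier results of these data known.

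Every cholesterol gene is named. Values per mouse were due for the 6 with the smallest unadjusted p and for Hmgcs1, Sqle, Srebf2, Scap, Insig1 and Insig2, and are added for Fdps and Stard4, chosen after their values were seen. Of each neighbouring list, the gene with the smallest p in each direction is named. The labels give no replicate or litter numbers shared between genotypes, so no pairing was used. Alternatives were other filters, scalings, a pseudocount of 5.04 without the floor, each gene's probe set of median difference in place of the brightest, a block for the range of animal numbers, the lower range alone, other variance models, array weights, the test named in the methods and leaving out each mouse. The upper range of animal numbers was added after seeing the data.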

Additional observations from a re-analysis of the deposited data

How the results depend on the processing

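With 3 mice per genotype, and intensities whose depth cannot be counted, only large differences could pass the test. Genes called at an adjusted p under 0.05 were 0 under every alternative run, both among the 27 cholesterol genes and among all genes tested, which gave 78 to 1866 genes at an unadjusted p under 0.05. Cholesterol genes at an unadjusted p under 0.05 numbered 2, against 234 of all 12152 genes tested. They numbered 9 among the mice with lower animal numbers, against 1866 of all genes, and 14 with array weights (whose estimate stopped before converging), against 1752. With the probe set of median difference for each gene they numbered 3, against 252. With no variance trend they numbered 1, against 282, and by the test named in the methods 1, against 335. Without 1 mouse they numbered 0 to 5. Leaving out Runx1-WT mouse 1, Runx1-WT mouse 2 or Runx1-null mouse 2 gave 0, against 78, 220 and 198 of all genes. Leaving out Runx1-null mice 1 and 3 gave 1 and 4, against 202 and 579, and leaving out Runx1-WT mouse 3 gave 5, against 818. Genes whose genotypes did not overlap numbered 5, and 3 with quantile normalization, 2 with median scaling, 3 with the probe set of median difference for each gene, 14 in the lower range and up to 10 without 1 mouse (8 when Runx1-null mouse 1, 9 when Runx1-WT mouse 3 and 10 when Runx1-null mouse 3 was left out). Fewer mice separate more easily. In the lower range, Runx1-null mice lay above for 26.1% of all genes tested and below for 24.5%, so the 14 was near the background. The share of all genes was not counted under the other alternatives, so those numbers have no background beside them. The median difference of 0.09 was 0.30 with array weights, 0.18 with median scaling, 0.036 in the upper range and 0.018 to 0.21 without 1 mouse. Median scaling moved the median of all genes from -0.02 to 0.07, and in the upper range that median was -0.092. The causes were not tested.

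Cyp51, Fdft1, Hmgcs1, Npc1, Npc2, Scap, Sqle, Tm7sf2 and Tmem97, or 9 of the 27, had the same sign under every alternative run. The other log2 differences turned as follows. Pmvk was 0.031 with quantile normalization, and with median scaling Mvk was 0.014 and Pmvk 0.073. In the lower range Ebp was -0.40, Lipa -0.19, Lss -0.092, Msmo1 -0.068 and Pmvk 0.27. In the upper range Dhcr7 was -0.55, Fdps -0.52, Hsd17b7 -0.50, Idi1 -0.13, Insig2 0.32, Mvd -0.74, Mvk 0.037, Nsdhl -0.0031, Sc5d 0.036, Srebf2 -0.020 and Stard4 -0.79. With array weights Ebp was -0.20, Lipa -0.040, Nsdhl -0.0078, Pmvk 0.21 and Sc5d 0.18. Leaving out each mouse in turn gave both signs for 14 genes: Dhcr7 (-0.015 to 0.27), Ebp (-0.33 to 0.28), Ggps1 (-0.20 to 0.016), Hsd17b7 (-0.19 to 0.24), Insig1 (-0.056 to 0.24), Insig2 (-0.32 to 0.020), Lipa (-0.17 to 0.27), Lss (-0.10 to 0.59), Msmo1 (-0.11 to 0.39), Mvd (-0.00060 to 0.52), Mvk (-0.21 to 0.0060), Nsdhl (-0.087 to 0.092), Pmvk (-0.27 to 0.15) and Sc5d (-0.35 to 0.056). No paired analysis was run, because the labels do not say which mice of the genotypes belong together.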
